A study of Mus musculus with 6 samples.

Results

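The 9 genes Hnf4a, Foxa1, Foxa2, Foxa3, Cebpa, Cebpb, Prox1, Hhex and Tbx3 encode transcription factors of the hepatocyte lineage. They were taken by symbol, and all 9 were found among the 20572 genes present in every one of the 6 count tables. The tables hold RNA-seq read counts of mouse liver progenitor-like cells (LPCs), in 3 groups of 2 libraries. All cells came from C57BL/6 mice labelled as aged 6 to 8 weeks, and all were grown in Transition and Expansion Medium (TEM). Bec_LPCs grew from pieces of intrahepatic bile duct of WT mice, plated in matrigel, and were sorted after 1 to 2 passages; the series' design text calls them Epcam+. Hep_LPCs (genotype ROSA26tdTomato) were derived from hepatocytes after mice with the tdTomato reporter were given AAV8-TBG-Cre, a virus in which the hepatocyte-restricted TBG promoter drives Cre. NPC_LPCs (genotype AlbCreERT/R26GFP) came from liver non-parenchymal cells, in a line whose inducible Cre is driven by the albumin promoter. The protocol gives an age of 8 weeks for the mice of both lineage tracing lines. Uncultured hepatocytes or cholangiocytes were not analysed here. The Bec_LPCs were prepared by another protocol, so protocol and cell origin cannot be told apart in comparisons with that group. Each group also has its own genotype, so genotype and cell origin cannot be told apart in any comparison. The same holds for the virus, described here for Hep_LPCs alone, in comparisons with Hep_LPCs.

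Hepatocyte identity is held by a network of transcription factors that bind one another's genes and shared enhancers. HNF4A is a nuclear receptor needed for hepatocyte differentiation and for the expression of many secreted proteins and metabolic enzymes. FOXA1, FOXA2 and FOXA3 are forkhead factors that open liver chromatin early in development, and C/EBPα and C/EBPβ are basic leucine zipper factors of hepatocyte metabolism, the acute phase and regeneration. In the liver, PROX1, HHEX and TBX3 are best known for the outgrowth of the liver bud and the fate of hepatoblasts. In the adult liver some of these genes are also expressed outside hepatocytes: Hhex and Foxa2 are found in the biliary epithelium.

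The start regions of 3 members are shown because the results turn on those genes. Hnf4a has a pair of known promoters that the counts per gene cannot separate, and Cebpa and Foxa3 had the widest spread of levels between the groups. Of the 9 members, 8 matched RefSeq windows (GRCm38.p6, the mm10 assembly), 12 windows in all; each sequence is the 250 bases upstream of a start, in the direction of the gene. The upstream Hnf4a start (chr2:163506607-163506856, plus strand), known as P2, lies 40298 bases before the downstream one (chr2:163546905-163547154, plus strand), known as P1, which is the main promoter of adult liver. The Cebpa window is chr7:35119043-35119292 on the plus strand, and the Foxa3 window is chr7:19023540-19023789 on the minus strand. Capitals mark matches on either strand to 5 motifs.
Hnf4a upstream start: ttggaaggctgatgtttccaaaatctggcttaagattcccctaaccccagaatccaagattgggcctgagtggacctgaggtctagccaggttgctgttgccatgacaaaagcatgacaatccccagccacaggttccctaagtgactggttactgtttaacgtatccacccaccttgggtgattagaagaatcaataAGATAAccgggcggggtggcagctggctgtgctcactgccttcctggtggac
Hnf4a downstream start: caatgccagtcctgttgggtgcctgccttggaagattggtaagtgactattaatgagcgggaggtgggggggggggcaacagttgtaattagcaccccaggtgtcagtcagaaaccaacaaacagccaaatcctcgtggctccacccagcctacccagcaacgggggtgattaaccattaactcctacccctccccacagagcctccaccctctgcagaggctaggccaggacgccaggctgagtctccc
Cebpa: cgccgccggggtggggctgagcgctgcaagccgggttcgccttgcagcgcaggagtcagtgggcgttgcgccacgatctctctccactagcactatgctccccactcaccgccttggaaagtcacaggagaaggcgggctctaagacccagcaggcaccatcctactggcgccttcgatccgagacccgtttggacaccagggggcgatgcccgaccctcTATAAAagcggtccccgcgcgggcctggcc
Foxa3: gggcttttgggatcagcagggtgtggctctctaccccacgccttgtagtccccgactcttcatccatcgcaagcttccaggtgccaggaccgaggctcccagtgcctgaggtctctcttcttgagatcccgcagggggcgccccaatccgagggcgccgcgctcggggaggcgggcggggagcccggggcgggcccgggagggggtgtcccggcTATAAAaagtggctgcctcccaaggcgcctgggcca
The motifs were a TATA box (TATAAA), a forkhead site (TGTTTAC), an HNF4 site (CAAAGTCCA), a C/EBP site (TTGCGCAA) and a GATA site (AGATAA). Among 32851 windows of all genes, 12.4% held the TATA box, 3.17% the forkhead site, 0.384% the HNF4 site, 0.164% the C/EBP site and 9.99% the GATA site. The TATA box was found in 4 of the 12 members' windows, among them those of Cebpa and Foxa3, which had a GC content of 66.4% and 68.8%, against a median of 52.4% over all windows. The upstream Hnf4a window held a single GATA site and the downstream one 0 matches to the 5 motifs; none of the matches shown overlap. The forkhead site was found in 1 member window, at Foxa1, and the letters of the HNF4 and C/EBP sites in 0.

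The libraries held between 17575998 and 22985844 reads. Replicates were not equally alike: the chi-square per degree of freedom between the counts of the replicates was 5.52 in Bec_LPCs, 92.5 in Hep_LPCs and 111 in NPC_LPCs, and the labels do not say whether replicates came from separate mice or cultures, so p-values measure the spread between these libraries only. One library stood apart: Ddx3y, a Y-linked RNA helicase gene, had 1 read in Hep_LPCs replicate 2, 1032 reads in replicate 1 and 1431 to 2370 reads in the other 4 libraries. The Bec_LPCs tables have another layout and contain mitochondrial genes (4.19% and 4.26% of counts) that the other tables lack, so a difference in counting and a difference between cells cannot be told apart for that group. Among the 9 members the median replicate difference was 0.23 on the log2 scale in Bec_LPCs, 0.42 in Hep_LPCs and 0.83 in NPC_LPCs, against 0.10, 0.42 and 0.35 over all genes. These are bulk samples, in which fewer cells expressing a factor and less RNA per cell cannot be told apart. Levels below are CPM, the reads of a gene per 1000000 reads of a library, on library sizes scaled by the trimmed mean of M-values (TMM), and a gene is called where the adjusted p of edgeR's quasi-likelihood test is under 0.05.

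**Figure D1:**
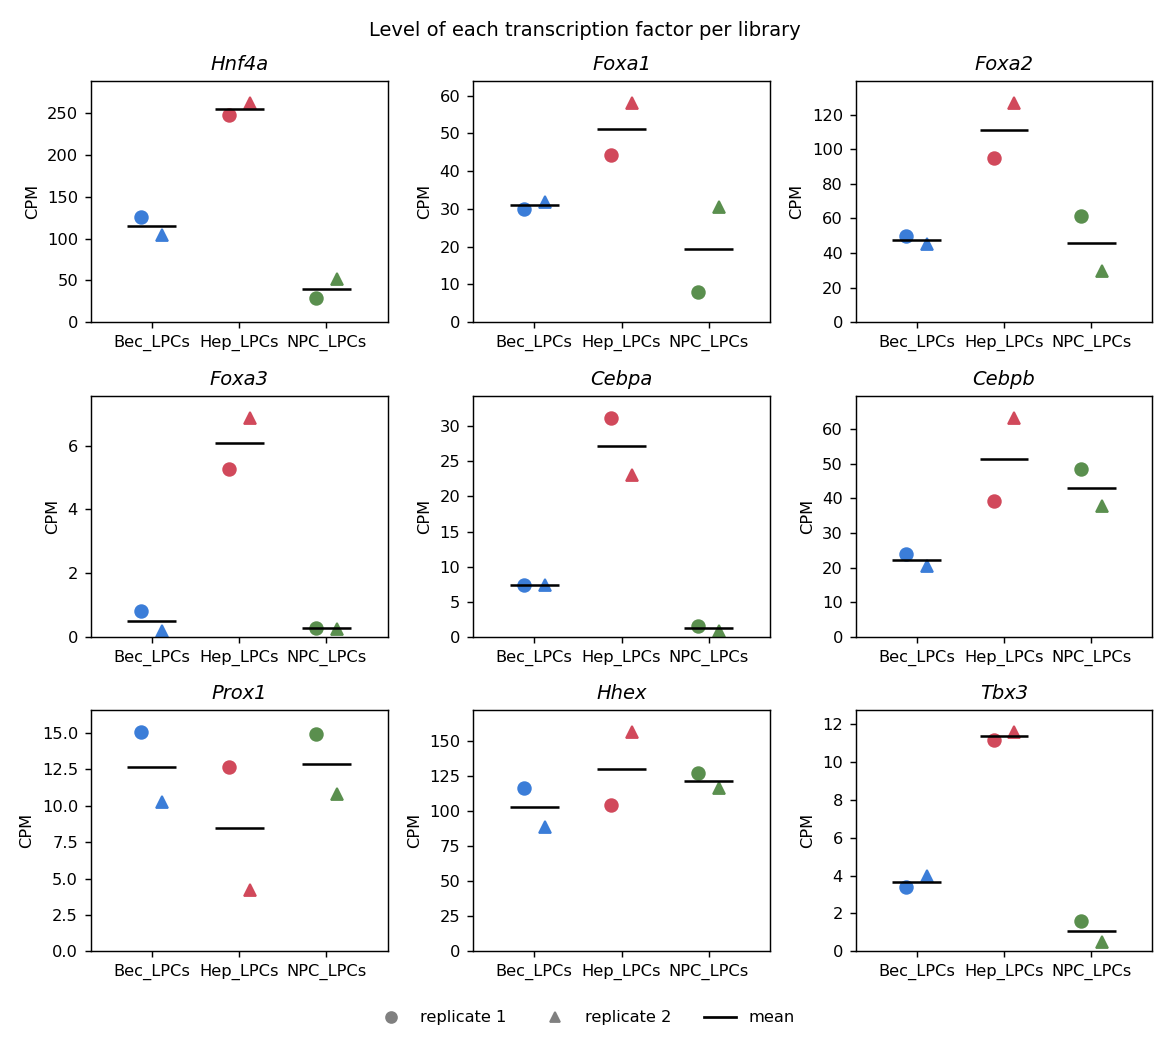
Level of each of the 9 factors in CPM (vertical axes, from 0, each gene on its own scale) in the 2 libraries of Bec_LPCs, Hep_LPCs and NPC_LPCs, with circles for replicate 1, triangles for replicate 2 and a bar for the mean. For Hnf4a, Foxa1, Foxa2, Foxa3, Cebpa and Tbx3 both Hep_LPCs libraries lie above the other 4, while Prox1 and Hhex overlap between groups.

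Hnf4a, the nuclear receptor of the set, differed in all 3 comparisons: it was intermediate in Bec_LPCs, highest in Hep_LPCs and lowest in NPC_LPCs. In Bec_LPCs it had 126 and 104 CPM (2974 and 2421 reads). In Hep_LPCs it had 248 and 263 CPM (4233 and 4426 reads). In NPC_LPCs it had 28.8 and 51.2 CPM (499 and 1007 reads). No group overlapped another. The means were 255 ± 10.5 CPM in Hep_LPCs and 40.0 ± 15.8 CPM in NPC_LPCs (SD, n = 2 each), a log2 difference of 2.65 ± 0.35 (SE; adjusted p = 0.0472, edgeR). Bec_LPCs, at 115 ± 15.4 CPM, were higher than NPC_LPCs by 1.52 ± 0.30 on the log2 scale (adjusted p = 0.0334, edgeR). Against Hep_LPCs, Bec_LPCs were lower, with a log2 difference of -1.15 ± 0.29 (adjusted p = 0.0308, edgeR). The gene lies at chr2:163506808-163572910 on the plus strand, with no exonic overlap with another gene. The call of Hep_LPCs against NPC_LPCs was not kept by limma-voom (adjusted p = 0.0647) or without robust estimation in edgeR (0.0571), fits that called 0.0406% and 0.43% of all genes. It was also not kept without Hep_LPCs replicate 1 or 2, which leaves a lone library in that group. The log2 difference stayed between 2.60 and 2.71 in all of these fits. The call of Bec_LPCs against NPC_LPCs was lost without Bec_LPCs replicate 1 (1.35, edgeR adjusted p = 0.225) or 2 (1.65, 0.161) and without NPC_LPCs replicate 1 (1.12, 0.0513). Against Hep_LPCs the call was lost without either Bec_LPCs replicate (edgeR adjusted p = 0.132 and 0.186) and without either Hep_LPCs replicate (0.0811 and 0.0842).

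Each Foxa gene was highest in Hep_LPCs, but the size of the differences and the calls were not the same. The genes were not tested against each other. Foxa3 (chr7:19013284-19023538, minus strand), the most abundant Foxa member of adult mouse liver, had few reads outside Hep_LPCs. It had 0.802 and 0.171 CPM (19 and 4 reads) in Bec_LPCs. It had 5.27 and 6.88 CPM (90 and 116 reads) in Hep_LPCs, and 0.289 and 0.254 CPM (5 reads in each library) in NPC_LPCs. Both Hep_LPCs libraries lay above all others, and the Bec_LPCs libraries lay on both sides of the NPC_LPCs pair. A count of 3 reads corresponds to 0.127 to 0.178 CPM, so the lower levels stood close to the limit of these libraries. The log2 difference of Bec_LPCs from Hep_LPCs was -3.62 ± 0.78 (adjusted p = 0.0203, edgeR). It ranged from -5.09 without Bec_LPCs replicate 1 to -2.91 without Bec_LPCs replicate 2, with edgeR adjusted p of 0.0624 and 0.125, and the call was also lost without Hep_LPCs replicate 2 (0.0546). Hep_LPCs and NPC_LPCs differed by 4.43 ± 0.69 on the log2 scale, which did not pass (adjusted p = 0.0582, edgeR). It was called with all 6 libraries in the fit (edgeR adjusted p = 0.0351), without a low-count filter (edgeR adjusted p = 0.0188), by DESeq2's Wald test (adjusted p = 1.7e-05) and by limma on log2(FPKM + 1) (adjusted p = 0.0365). Bec_LPCs and NPC_LPCs differed by 0.83 ± 0.83 (adjusted p = 0.533, edgeR).

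Foxa2 (chr2:148042877-148046969, minus strand), a forkhead factor of foregut endoderm, had 50.1 and 45.5 CPM in Bec_LPCs. It had 95.0 and 127 CPM in Hep_LPCs and 61.3 and 29.7 CPM in NPC_LPCs. Hep_LPCs lay above both other groups, and the NPC_LPCs pair enclosed the Bec_LPCs pair. Bec_LPCs fell below Hep_LPCs, with a log2 difference of -1.22 ± 0.36 (adjusted p = 0.0476, edgeR); this was lost with the replicate number as a block (-1.24, adjusted p = 0.0562), with library size alone as scaling, and without any 1 of the Bec_LPCs or Hep_LPCs libraries (edgeR adjusted p from 0.0823 to 0.207). Hep_LPCs and NPC_LPCs differed by 1.27 ± 0.39 (adjusted p = 0.149, edgeR; 0.0329 by DESeq2), and Bec_LPCs and NPC_LPCs by 0.07 ± 0.36 (adjusted p = 0.909, edgeR). Foxa1 (chr12:57540628-57546916, minus strand), the forkhead partner of Foxa2 in specifying the liver, had 30.0 and 31.8 CPM in Bec_LPCs, 44.3 and 58.0 CPM in Hep_LPCs, and 7.91 and 30.6 CPM in NPC_LPCs. Its NPC_LPCs libraries were further apart than those of any other member in that group, 1.94 on the log2 scale, and the higher of them fell within the Bec_LPCs range. No comparison of Foxa1 passed in these fits: the log2 difference was 1.38 ± 0.64 for Hep_LPCs against NPC_LPCs, 0.68 ± 0.58 for Bec_LPCs against NPC_LPCs and -0.73 ± 0.58 for Bec_LPCs against Hep_LPCs (adjusted p = 0.278, 0.464 and 0.361, edgeR). Bec_LPCs were called lower than Hep_LPCs in the fit of those 4 libraries (-0.74, edgeR adjusted p = 0.0436) and without either NPC_LPCs replicate (0.0460 and 0.0490), and higher than NPC_LPCs without NPC_LPCs replicate 2 (1.97, 0.0320).

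Per length, as CPM per kilobase of exon, Foxa2 made up most of the summed Foxa level in every library. Its share was 69.1% and 66.6% in Bec_LPCs, 71.6% and 72.0% in Hep_LPCs, and 91.1% and 57.3% in NPC_LPCs. Foxa3 made up 1.29% and 0.292% in Bec_LPCs, 4.62% and 4.54% in Hep_LPCs, and 0.499% and 0.571% in NPC_LPCs. The summed Foxa level was 30.5 and 28.8 CPM per kilobase in Bec_LPCs, 56.0 and 74.3 in Hep_LPCs, and 28.4 and 21.8 in NPC_LPCs. The NPC_LPCs libraries, close in their sum, were unlike in makeup: Foxa1 held 8.37% in replicate 1 and 42.1% in replicate 2. These shares are descriptions of 2 libraries per group and were not tested.

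**Figure D2:**
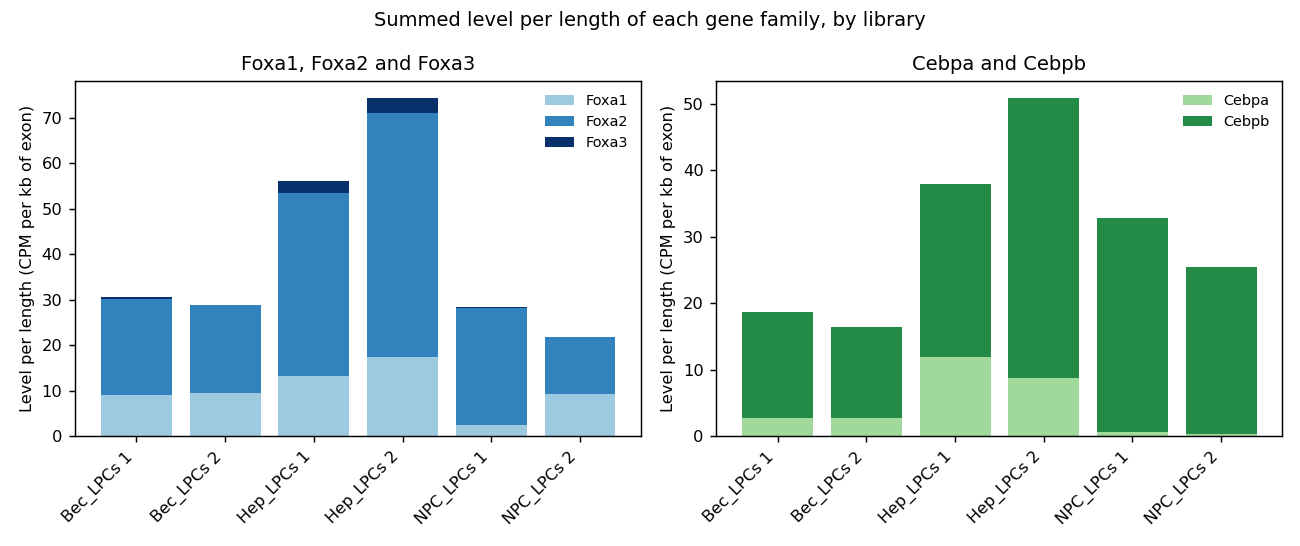
Level per length (vertical axes, CPM per kilobase of exon) of the Foxa genes (left panel) and of Cebpa and Cebpb (right panel), stacked, with 1 bar for each of the 6 libraries. The Foxa bars are tallest in the Hep_LPCs libraries (56.0 and 74.3), and Cebpa is nearly invisible in the NPC_LPCs libraries (1.81% and 1.22% of the pair).

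Cebpa, whose product drives hepatocyte metabolic genes and restrains proliferation, was graded like Hnf4a but over a wider range. It had 7.39 and 7.37 CPM (175 and 172 reads) in Bec_LPCs. It had 31.3 and 23.1 CPM (534 and 389 reads) in Hep_LPCs, and 1.56 and 0.813 CPM (27 and 16 reads) in NPC_LPCs. The 3 groups did not overlap. The mean was 27.2 ± 5.78 CPM in Hep_LPCs and 1.19 ± 0.527 CPM in NPC_LPCs (SD, n = 2 each), a log2 difference of 4.50 ± 0.49 (adjusted p = 0.0326, edgeR). Bec_LPCs were higher than NPC_LPCs by 2.64 ± 0.39 on the log2 scale (adjusted p = 0.0184, edgeR). Bec_LPCs were lower than Hep_LPCs, with a log2 difference of -1.88 ± 0.36 (adjusted p = 0.0147, edgeR). The first of these calls was lost with limma-voom (adjusted p = 0.0670), which called 0.0406% of all genes. It was also lost without Hep_LPCs replicate 1 (log2 difference 4.28) or 2 (4.70), which leaves a lone library in that group. The second and the third were lost without either Bec_LPCs replicate (edgeR adjusted p of 0.119 to 0.120), and the third also without Hep_LPCs replicate 1 (0.0535). Cebpa is a gene of a single exon at chr7:35119293-35121928, and 1.94% of its exonic length overlaps a gene on the opposite strand.

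Cebpb, a factor of the acute phase and of regeneration, stood in another order. It had 23.9 and 20.5 CPM in Bec_LPCs, 39.2 and 63.4 CPM in Hep_LPCs, and 48.4 and 37.7 CPM in NPC_LPCs. The Bec_LPCs libraries were the lowest of the 6, and the other groups overlapped. Bec_LPCs fell below Hep_LPCs, with a log2 difference of -1.21 ± 0.29 (adjusted p = 0.0262, edgeR). Without Bec_LPCs replicate 1 or 2, or Hep_LPCs replicate 2, the call was lost (log2 differences of -1.32, -1.10 and -0.82; edgeR adjusted p = 0.128, 0.170 and 0.0584). Bec_LPCs and NPC_LPCs differed by -0.96 ± 0.29 (adjusted p = 0.0836, edgeR), which DESeq2's Wald test (adjusted p = 0.0211) and the edgeR fit of those 4 libraries (0.0428) called, and Hep_LPCs and NPC_LPCs by 0.23 ± 0.32 (adjusted p = 0.703, edgeR). Of the exonic length of Cebpb (chr2:167688915-167690418), 20.7% overlaps Tmem189 on the opposite strand, and how the counting treated strand was not given in the sources used here. Tmem189 had 20.6 and 21.7 CPM in Bec_LPCs, 39.1 and 41.7 CPM in Hep_LPCs, and 29.8 and 37.4 CPM in NPC_LPCs, so its levels were also lowest in Bec_LPCs; its part in the Cebpb difference was not tested. Cebpa made up 15.0% and 17.0% of the summed Cebpa and Cebpb level per length in Bec_LPCs, 31.3% and 17.2% in Hep_LPCs, and 1.81% and 1.22% in NPC_LPCs.

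Tbx3 (chr5:119670669-119684724, plus strand), a T-box repressor that in mouse keeps hepatoblasts in the hepatocyte lineage, had 3.38 and 3.99 CPM (80 and 93 reads) in Bec_LPCs. It had 11.2 and 11.6 CPM (191 and 195 reads) in Hep_LPCs, and 1.62 and 0.508 CPM (28 and 10 reads) in NPC_LPCs. The 3 groups did not overlap and stood in the same order as for Cebpa, but no Tbx3 difference passed the test. The log2 difference was 3.41 ± 0.69 for Hep_LPCs against NPC_LPCs (adjusted p = 0.0804), 1.80 ± 0.57 for Bec_LPCs against NPC_LPCs (adjusted p = 0.0964) and -1.63 ± 0.54 for Bec_LPCs against Hep_LPCs (adjusted p = 0.0645), all by edgeR. DESeq2's Wald test called each of them. With all 6 libraries (adjusted p = 0.0300) or no low-count filter (0.0300), edgeR called Hep_LPCs against NPC_LPCs. Bec_LPCs against Hep_LPCs was called by edgeR with those 4 libraries (adjusted p = 0.0138) and by limma-voom (adjusted p = 0.0202). Without NPC_LPCs replicate 1 edgeR called both differences from NPC_LPCs (adjusted p = 0.0370 for Hep_LPCs and 0.0374 for Bec_LPCs).

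Hhex (chr19:37434810-37440731, plus strand), a homeobox factor of liver bud and bile duct development, differed in none of the 3 edgeR tests. It had 117 and 88.7 CPM in Bec_LPCs, 104 and 157 CPM in Hep_LPCs, and 128 and 116 CPM in NPC_LPCs. Bec_LPCs replicate 2 was the lowest library and Hep_LPCs replicate 2 the highest, and the pairs of Bec_LPCs and of NPC_LPCs each overlapped that of Hep_LPCs. The log2 difference was 0.08 ± 0.28 for Hep_LPCs against NPC_LPCs, -0.25 ± 0.25 for Bec_LPCs against NPC_LPCs and -0.34 ± 0.25 for Bec_LPCs against Hep_LPCs (adjusted p = 0.897, 0.545 and 0.325, edgeR). Prox1 (chr1:190118035-190170714, minus strand), a homeobox factor of hepatoblast migration and hepatocyte metabolism, overlapped between all groups. It had 15.1 and 10.3 CPM in Bec_LPCs, 12.7 and 4.21 CPM in Hep_LPCs, and 15.0 and 10.8 CPM in NPC_LPCs. The lowest library was Hep_LPCs replicate 2, and that pair, 1.57 apart on the log2 scale, was the widest of any member in Hep_LPCs. The log2 difference was -0.62 ± 0.59 for Hep_LPCs against NPC_LPCs, -0.02 ± 0.54 for Bec_LPCs against NPC_LPCs and 0.58 ± 0.55 for Bec_LPCs against Hep_LPCs (adjusted p = 0.566, 0.981 and 0.436, edgeR). For neither gene do these p-values show that the groups are alike.

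Counted over the 9 members, Hep_LPCs were higher than NPC_LPCs in 2 (Hnf4a and Cebpa) and lower in 0, where 0.349% of the 12330 genes tested were called higher, 0.446% lower and 0.795% in either direction. The Hep_LPCs libraries lay above both NPC_LPCs libraries for 6 members and below for 0, against 27.9% and 28.6% of all genes. Bec_LPCs were higher than NPC_LPCs in 2 members and lower in 0, where 4.88% of 12867 genes were called higher, 6.44% lower and 11.3% either way; 3 members lay above without overlap (37.0% of all genes) and 1, Cebpb, below (33.0%). Bec_LPCs were lower than Hep_LPCs in 5 members (Hnf4a, Foxa2, Foxa3, Cebpa and Cebpb) and higher in 0, where 17.2% of genes were called lower, 16.1% higher and 33.4% either way. Here 7 members lay below without overlap and 0 above, against 36.8% and 40.8% of all genes. At an unadjusted p under 0.05 the members numbered 5, 4 and 6 in the 3 comparisons, in which 22.2%, 31.5% and 47.3% of all genes passed. Without either Hep_LPCs library the first count was 0, in fits that called 0 of all genes, so they say nothing of the members' stability. Without Bec_LPCs replicate 1 or 2 both other counts were 0, in fits that called 0.865% and 0.884% of all genes against NPC_LPCs, and 3.69% and 3.71% against Hep_LPCs. Bec_LPCs against Hep_LPCs had 2 without Hep_LPCs replicate 1 (25.9% of all genes called) and 1 without replicate 2 (33.0%). In a fit of the 4 libraries of Bec_LPCs and Hep_LPCs 7 members were called lower, where 39.3% of all genes were called, Foxa1 and Tbx3 being added, and the same 7 were called without either NPC_LPCs library (36.6%). The median log2 difference of the members was 1.38, 0.68 and -1.21 in the 3 comparisons, against 0.00, 0.01 and 0.03 over all genes tested. The comparisons share libraries in pairs, so their counts are not separate evidence. All 9 members passed the filter on low counts in the main fits. Foxa3 had 90 and 116 reads in Hep_LPCs, 19 and 4 in Bec_LPCs and 5 in each NPC_LPCs library. It did not pass in a fit of the 4 libraries of Bec_LPCs and NPC_LPCs, so its test between those groups rested on Hep_LPCs being in the fit.

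**Figure D3:**
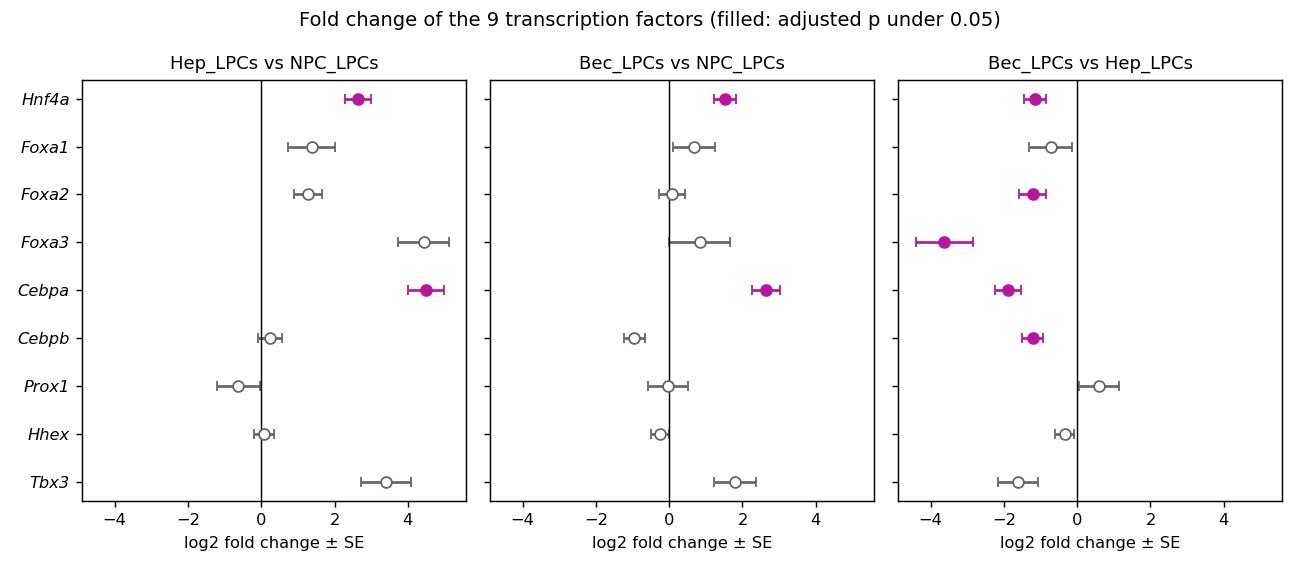
Log2 fold change (horizontal axes, points with SE bars) of the 9 factors in Hep_LPCs against NPC_LPCs, Bec_LPCs against NPC_LPCs and Bec_LPCs against Hep_LPCs, from left to right, with filled points where the edgeR adjusted p is under 0.05. Hnf4a and Cebpa are filled to the right of 0 in the first and second panels, and 5 factors are filled to the left of 0 in the third.

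The order of the factors within a group differed between CPM per kilobase and the authors' deposited FPKM. As CPM per kilobase of all annotated exons, Hnf4a was the highest in Hep_LPCs, at 52.9 ± 2.18, ahead of Foxa2 at 46.8 ± 9.49, Cebpb at 34.1 ± 11.4 and Hhex at 25.8 ± 7.30 (SD, n = 2 each). Foxa1 followed at 15.4 ± 2.92, Cebpa at 10.3 ± 2.19, Foxa3 at 2.98 ± 0.561, Tbx3 at 1.72 ± 0.0418 and Prox1 at 1.01 ± 0.715. The ranges over 2 libraries of Hnf4a and Foxa2, of Foxa2 and Cebpb and of Cebpb and Hhex overlapped, so those neighbours were not separated. In Bec_LPCs Hnf4a was again first, at 23.7 ± 3.18, with Hhex at 20.3 ± 3.94, Foxa2 at 20.2 ± 1.36 and Cebpb at 14.8 ± 1.60. The ranges of the first 3 overlapped in turn, and Cebpb lay below them. The rest of the Bec_LPCs order was Foxa1 (9.30 ± 0.375), Cebpa (2.80 ± 0.00310), Prox1 (1.51 ± 0.403), Tbx3 (0.556 ± 0.0652) and Foxa3 (0.239 ± 0.219), none of which overlapped its neighbour. In NPC_LPCs Cebpb was first, at 28.6 ± 5.02, then Hhex at 24.1 ± 1.58, Foxa2 at 19.2 ± 9.44 and Hnf4a, in place 4, at 8.29 ± 3.28. Cebpb, Hhex and Foxa2 overlapped in turn there, as did Hnf4a and Foxa1 (5.79 ± 4.82). Prox1 (1.54 ± 0.348), Cebpa (0.450 ± 0.200), Tbx3 (0.160 ± 0.118) and Foxa3 (0.133 ± 0.0120) were the lowest, with Tbx3 enclosing Foxa3. In the authors' deposited FPKM, which exist for the Hep_LPCs and NPC_LPCs tables, Cebpb was instead the highest in Hep_LPCs, at 85.5 ± 33.3, ahead of Hhex at 62.5 ± 20.0, Foxa2 at 39.5 ± 9.27 and Hnf4a at 30.5 ± 3.44. Which gene length those FPKM rest on was not given in the sources used here.

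Among 18 other liver-enriched transcription factors, 13 were tested. In Hep_LPCs against NPC_LPCs edgeR called 0 (0.795% of all genes), and 4 had an unadjusted p under 0.05, with a median log2 difference of 0.58; no other tool was run on this list. In Bec_LPCs against NPC_LPCs 2 rose and 1 fell, where 11.3% of all genes were called, with a median of 0.25. Onecut2, a cut-homeobox factor of liver and bile duct development, had 548 and 440 CPM in Bec_LPCs and 53.7 and 72.9 CPM in NPC_LPCs, and the zinc-finger gene Gata6 had 69.8 and 64.0 CPM in Bec_LPCs and 35.4 and 31.1 CPM in NPC_LPCs. The one that fell was Cebpd, an acute phase factor, at 10.5 and 8.66 CPM in Bec_LPCs and 45.3 and 29.6 CPM in NPC_LPCs. The log2 differences were 2.96 ± 0.65 for Onecut2, 1.01 ± 0.21 for Gata6 and -1.97 ± 0.28 for Cebpd (edgeR adjusted p = 0.0442, 0.0387 and 0.0166).

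In Bec_LPCs against Hep_LPCs, 1 of the 13 rose and 2 fell, where 33.4% of all genes were called, with a median of -0.59. Onecut2 rose, with 9.54 and 40.6 CPM in Hep_LPCs (4.30 ± 0.70; adjusted p = 0.00969, edgeR). Nr1h4, the bile acid receptor FXR, had 8.02 and 7.72 CPM in Bec_LPCs and 23.3 and 29.0 CPM in Hep_LPCs (-1.73 ± 0.24; adjusted p = 0.00640, edgeR). Atf5, a stress-response factor abundant in liver, had 74.5 and 80.3 CPM in Bec_LPCs and 223 and 248 CPM in Hep_LPCs (-1.60 ± 0.37; adjusted p = 0.0235, edgeR). For Nr1h4 and Atf5 both Hep_LPCs libraries lay above the other 4. Of the nuclear receptors in the list, Nr0b2 and Nr1i3, which act in bile acid and xenobiotic metabolism, had 0 reads in 5 and 4 of the 6 libraries.

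Of 23 genes related to the members by family, 17 were tested in Hep_LPCs against NPC_LPCs and 20 in the other comparisons. None was called by edgeR in Hep_LPCs against NPC_LPCs (0.795% of all genes were; 2 had an unadjusted p under 0.05; median log2 difference 0.08). None was called in Bec_LPCs against NPC_LPCs either (11.3% of all genes were), where 5 had an unadjusted p under 0.05 and the median was -0.53, and no other tool was run on this list. In Bec_LPCs against Hep_LPCs 2 rose and 3 fell of the 20, where 33.4% of all genes were called, with a median of -0.48. Foxn3, a forkhead repressor, had 97.7 and 96.9 CPM in Bec_LPCs and 36.6 and 32.4 CPM in Hep_LPCs (1.50 ± 0.22; adjusted p = 0.00795, edgeR). Foxc2, a mesenchymal forkhead gene, had 57 and 46 reads in Bec_LPCs and 0 in both Hep_LPCs libraries. Foxm1, a forkhead factor of dividing cells, had 27.1 and 33.9 CPM in Bec_LPCs and 173 and 100 CPM in Hep_LPCs (-2.17 ± 0.42; adjusted p = 0.0154, edgeR). The C/EBP relatives Cebpz and Ddit3 fell too, by 0.75 ± 0.15 and 1.34 ± 0.36 on the log2 scale (edgeR adjusted p = 0.0164 and 0.0362).

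Many of the hepatocyte genes that these factors are known to bind had no reads. Of 28 such genes, 12 to 16 had 0 reads in a given library, and the amino acid enzyme Tat, the bile acid enzymes Cyp7a1 and Cyp8b1, the urea cycle gene Otc, the gluconeogenic gene Pck1, the plasma proteins Ahsg and Vtn, Apoc3 and Cyp2e1 had 0 in all 6. Alb, the albumin gene, had 23 and 10 reads in Bec_LPCs, 41 and 2 in Hep_LPCs and 2 and 3 in NPC_LPCs. Apob, the apolipoprotein of very low density lipoprotein, was by contrast abundant, with 2895 and 3167 CPM in Bec_LPCs, 3640 and 4975 CPM in Hep_LPCs and 2793 and 1510 CPM in NPC_LPCs. A list of 10 hepatocyte markers summed to 3003 and 3265 CPM in Bec_LPCs, 3888 and 5146 CPM in Hep_LPCs and 3155 and 1605 CPM in NPC_LPCs. Most of each sum was Apob, followed by Ass1, a urea cycle enzyme gene also expressed outside the liver, with 106 and 96.5 CPM in Bec_LPCs, 239 and 168 CPM in Hep_LPCs and 362 and 94.8 CPM in NPC_LPCs. Between 3 and 6 of the 10 markers were at 0 in a library, Tat, Cyp2e1 and Cyp7a1 in all of them.

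Of those 28 genes 11 were tested in Hep_LPCs against NPC_LPCs. Among them 2 rose and 0 fell, where 0.795% of all genes were called (median log2 difference 2.05). Hpx, the haem carrier hemopexin, had 50.6 and 45.3 CPM in Hep_LPCs and 2.95 and 1.53 CPM in NPC_LPCs (4.41 ± 0.43; adjusted p = 0.0316, edgeR). Rbp4, the plasma retinol carrier, had 518 and 513 CPM in Hep_LPCs and 57.3 and 95.4 CPM in NPC_LPCs (2.73 ± 0.34; adjusted p = 0.0410, edgeR). In Bec_LPCs Rbp4 was lowest, at 26.8 and 22.5 CPM, which was below NPC_LPCs (-1.63 ± 0.27; adjusted p = 0.0238, edgeR) and below Hep_LPCs (-4.39 ± 0.30; adjusted p = 0.00134, edgeR). Ambp, which encodes the plasma protein alpha-1-microglobulin, stood the other way: it had 23.8 and 17.7 CPM in Bec_LPCs, 0.293 and 1.13 CPM in Hep_LPCs and 0.173 and 0.0508 CPM in NPC_LPCs, and was called higher in Bec_LPCs in both comparisons (edgeR adjusted p = 0.00944 against NPC_LPCs and 0.00759 against Hep_LPCs). In Bec_LPCs against NPC_LPCs, 2 of 13 tested rose and 1 fell, where 11.3% of all genes were called. The other that rose was Ttr, the thyroid hormone carrier transthyretin, with 44 and 26 reads against 0 and 1. The median there was 0.49, or 0.10 without Apoa1, which had at most 1 read in any of those libraries. In Bec_LPCs against Hep_LPCs 1 of 13 rose and 3 fell, where 33.4% of all genes were called (median -0.84). Those that fell were Rbp4, Hpx (-5.16 ± 0.39, adjusted p = 0.00165, edgeR) and the apolipoprotein gene Apoa1. Apoa1 had 0 and 1 reads in Bec_LPCs and 95 and 16 in Hep_LPCs.

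**Figure D4:**
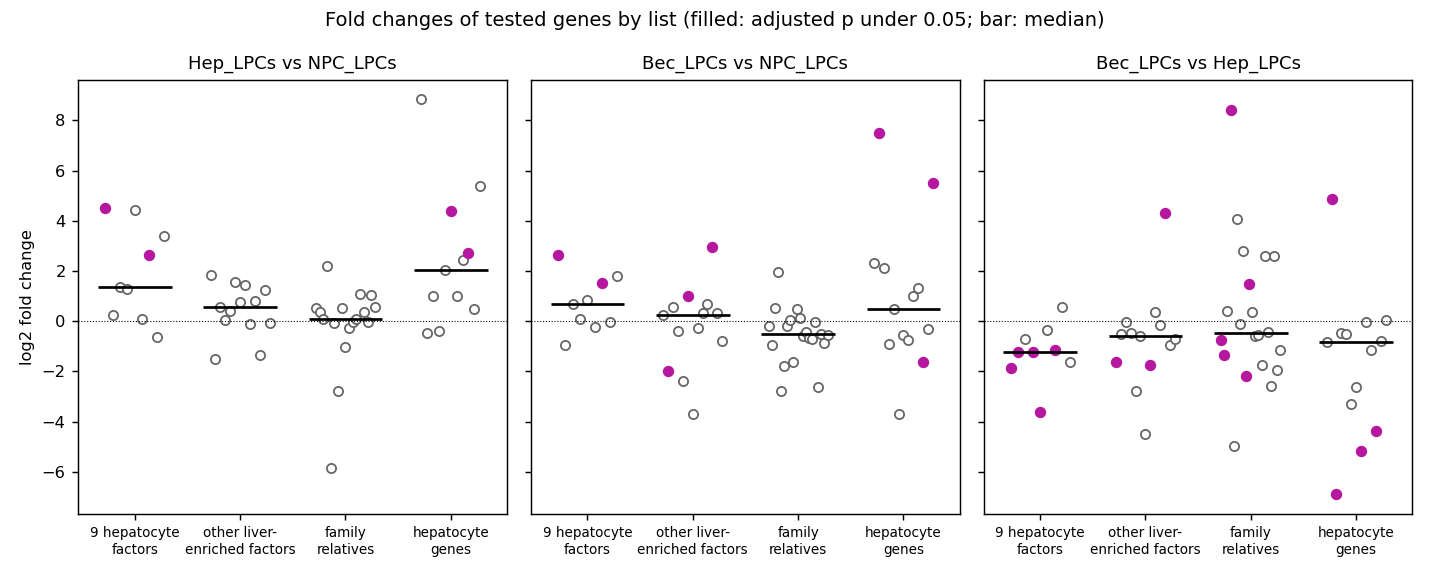
Log2 fold change (vertical axis) of each tested gene in 4 lists, for Hep_LPCs against NPC_LPCs, Bec_LPCs against NPC_LPCs and Bec_LPCs against Hep_LPCs from left to right; each point is a gene, filled where the edgeR adjusted p is under 0.05, and bars are medians. The bars of the 9 factors lie at 1.38, 0.68 and -1.21; points of genes with 0 or 1 reads in a group, such as Foxc2, depend on the fitted prior.

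Markers of other cell types moved with some groups. The summed level of 8 cholangiocyte markers was 4281 and 3615 CPM in Bec_LPCs, 5041 and 2343 CPM in Hep_LPCs and 10074 and 4917 CPM in NPC_LPCs, none of the 8 being at 0 in any library. Spp1, the gene of the secreted protein osteopontin, carried most of these sums, with 3114 and 2419 CPM in Bec_LPCs, 3187 and 953 CPM in Hep_LPCs and 9411 and 4314 CPM in NPC_LPCs. The median of the 8 log2 differences of Bec_LPCs from NPC_LPCs was 2.11. Krt7, Epcam and Dcdc2a were called higher in Bec_LPCs, where 4.88% of all genes were, and Krt19 and Cftr were higher without a call. The other markers had log2 differences below 0, none of them called: Spp1 (-1.31), Slc4a2 (-0.57) and Sox9 (-0.26). Krt7, a biliary keratin, had 298 and 365 CPM in Bec_LPCs and 1.50 and 17.7 CPM in NPC_LPCs. Epcam, on which the design text defines Bec_LPCs, had 59.0 and 65.7 CPM there, 0.351 and 1.84 CPM in Hep_LPCs and 0.115 and 0.610 CPM in NPC_LPCs. The summed level of 10 mesenchymal and stellate markers was 194 and 228 CPM in Bec_LPCs, 15.5 and 10.1 CPM in Hep_LPCs and 6.06 and 18.6 CPM in NPC_LPCs, with Lrat at 0 in all 6. Acta2 (77.6 and 94.1 CPM) and Col1a1 (63.7 and 76.9 CPM) carried most of the Bec_LPCs sums. Of the 8 tested, 8 had log2 differences above 0 against NPC_LPCs and 6 against Hep_LPCs. The others, Pdgfra (-1.23) and Reln (-0.36), were uncalled, and Dcn, untested and near the floor, had its lowest mean in Bec_LPCs. In Hep_LPCs the intestinal list of 6 genes summed to 126 and 62.3 CPM, against 15.3 and 14.7 CPM in Bec_LPCs and 27.2 and 12.9 CPM in NPC_LPCs, with Cdx1 at 0 throughout. Cdx2 had 34.6 and 30.9 CPM in Hep_LPCs, 0.0844 and 0.0857 CPM in Bec_LPCs and 3.52 and 4.52 CPM in NPC_LPCs. It was called by edgeR in every comparison (adjusted p from 0.000495 to 0.0382). Lgals4 was called lower in Bec_LPCs than in Hep_LPCs (adjusted p = 0.00671, edgeR). Vil1 and Lgr5 were uncalled and Muc2 untested. Lgr5 was uneven between replicates, with 40.5 and 7.77 CPM in Hep_LPCs and 21.0 and 2.49 CPM in NPC_LPCs. The 8 macrophage and leukocyte markers summed to 67.6 and 60.7 CPM in Bec_LPCs, 121 and 57.0 CPM in Hep_LPCs and 247 and 74.9 CPM in NPC_LPCs, with Clec4f and Cd3e at 0 in all 6. These sums were mostly Cd14 and Cd68, which are not confined to leukocytes. The only call in this list was Cd79a, lower in Bec_LPCs (3 and 0 reads) than in Hep_LPCs (17 and 30 reads; adjusted p = 0.0330, edgeR). The 8 endothelial markers summed to between 95.8 and 115 CPM in every library, of which Flt4 alone gave 91.0 to 110 CPM, while Pecam1, Cdh5, Stab2, Lyve1, Tek and Erg were each under 1 CPM throughout. The remaining marker, Kdr, had 1.48 and 0.986 CPM in Bec_LPCs, 7.14 and 5.76 CPM in Hep_LPCs and 1.96 and 3.15 CPM in NPC_LPCs. Kdr was called lower in Bec_LPCs than in Hep_LPCs (-2.38 ± 0.49, adjusted p = 0.0176, edgeR), where 17.2% of all genes were called lower. The 5 mesothelial markers summed to between 210 and 830 CPM with no order by group, nearly all of it Msln. The part of these cells in the levels of the 9 factors was not tested.

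Profiles most like those of the members were found by the root mean square difference of centred log2 CPM over the 6 libraries, among 10228 or 10229 protein-coding genes. Nearest to Hnf4a was Krt19, a keratin of bile duct cells, at 0.286, with 472 and 441 CPM in Bec_LPCs, 1511 and 932 CPM in Hep_LPCs and 117 and 282 CPM in NPC_LPCs; the median gene was 1.21 away. The polarity gene Crb3 (0.41) and the pyrophosphate transporter gene Ank (0.42) came next. Nearest to Cebpa was another member, Tbx3, at 0.475, then Apoe (0.505) and Pcsk6 (0.550), where the median gene was 1.89 away. Apoe, the apolipoprotein of remnant particles, was also nearest to Tbx3, at 0.264, and had 4.81 and 4.89 CPM in Bec_LPCs, 21.7 and 18.4 CPM in Hep_LPCs and 2.43 and 1.17 CPM in NPC_LPCs. Sh2d4a (0.401) and Mal2 (0.408) followed for Tbx3.

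Foxa3 was nearest to Sema4g (0.521), Tubb4a (0.550) and Atoh8 (0.559), and Foxa2 to Stard10 (0.126), Rab27b (0.143) and Add3 (0.145). Stard10, a lipid transfer protein gene, had 96.7 and 87.4 CPM in Bec_LPCs, 178 and 239 CPM in Hep_LPCs and 94.2 and 60.0 CPM in NPC_LPCs. Foxa1 was nearest to Dnph1 (0.206), Mrm3 (0.247) and Tpm2 (0.259), Cebpb to Hnrnpul2 (0.0657), Vps37c (0.0832) and Trappc1 (0.0843), Prox1 to Bbx (0.186), Peak1 (0.214) and Tcp11l1 (0.219), and Hhex to Marveld1 (0.0488), Asb13 (0.0636) and Selenoo (0.0807). Small distances are common for flat profiles: the median gene was 0.472 from Hhex and 0.673 from Cebpb. Among the members the closest pair was Cebpb and Hhex (0.376), followed by Cebpa and Tbx3 (0.475) and by Hnf4a and Foxa1 (0.548). These are distances over 6 libraries that share their group structure, given as a description.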

How the data were processed

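Polyadenylated RNA was sequenced from stranded paired-end libraries, per the labels' protocols. The build mm10 and the tools HISAT2, HTSeq, Cufflinks, Trimmomatic and DESeq are named in the submitters' processing notes. Versions, roles, annotation and strand setting were not given in the sources used here. For each library the authors deposited a table, with raw counts per gene symbol and, for Hep_LPCs and NPC_LPCs, FPKM, per the file headers. Rows without a name, 14 per Bec_LPCs table (0.000191% and 0.000181% of counts), were left out.

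Older symbols were updated, which left 20572 shared genes (19763 as deposited). The fit for Hep_LPCs against NPC_LPCs held those 4 libraries, and the fit for both Bec_LPCs comparisons all 6. After filterByExpr and TMM scaling, the two-sided quasi-likelihood test of edgeR (robust glmQLFit) was adjusted by Benjamini-Hochberg over all genes tested and called under 0.05 (edgeR 4.0.16, limma 3.58.1, R 4.3.3). Alternatives used DESeq2 1.42.0, limma-voom, limma on log2(FPKM + 1), other scalings and filters, a replicate block, other gene and library sets, and each library left out. The edgeR procedure was run on simulated counts with known changes in Bec_LPCs against NPC_LPCs. The simulation gave every group the same spread, whereas the real replicates were not equally alike, so it does not cover that difference. Coordinates are GENCODE M21 on mm10, 1-based; the floor of 3 reads covers counting error only.

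The members and lists were chosen with earlier results of these data known. Some genes and a motif were taken out of the lists afterwards and are not reported here. Named genes are all members, up to 4 called genes per list and comparison by adjusted p, defining markers at or near 0, and the 3 genes closest in profile, among those with a mean of at least 5 CPM.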

Additional observations from a re-analysis of the deposited data

How the results depend on the processing

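In Hep_LPCs against NPC_LPCs, 2 members were called, with 0.795% of all genes. It was 4 without a low-count filter (3.25% of all genes), 5 with DESeq2's Wald test (12.3%), 0 with limma-voom (0.0406%; 6 members had an unadjusted p under 0.05), 1 without robust estimation (0.43%) and 4 with all 6 libraries in the fit (9.9%). In Bec_LPCs against NPC_LPCs, 2 were called (11.3%) and DESeq2 called 4 (22.5%). With 1 library left out, the counts ranged from 0 to 3, from 0 to 3 and, for Bec_LPCs against Hep_LPCs, from 0 to 7, against 2, 2 and 5. They were 0 without either Hep_LPCs library in the first comparison, where 0 of all genes were called, and without either Bec_LPCs library in the other two (at most 0.884% and 3.71% of all genes); there edgeR left 2 to 6 members with an unadjusted p under 0.05, and the lone sample was assumed to vary like the other groups. Over all genes the calls ranged from 0 to 1517, from 115 to 2898 and from 491 to 5400, against 98, 1457 and 4292.

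The labels do not say whether the replicate numbers pair the libraries. Deviations of same-numbered libraries correlated across genes at -0.01, 0.09 and -0.04, which cannot exclude pairing with so few libraries. With the replicate block 2, 2 and 4 members were called, Foxa2 being lost in Bec_LPCs against Hep_LPCs. Of all genes, 1.03% were called with the block in Hep_LPCs against NPC_LPCs (0.795% without it). In Bec_LPCs against NPC_LPCs 5.98% were called with it (11.3% without it). Library size alone as scaling moved the median of all genes in the Bec_LPCs comparisons to 0.17 and 0.21.

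Directions reversed only for members that were uncalled in the comparison as reported. In Bec_LPCs against NPC_LPCs, Prox1 was 0.14 with library size alone; with 1 library left out it ranged from -0.34 to 0.23, Foxa1 from -0.031 to 1.97, Foxa2 from -0.36 to 0.64 and Foxa3 from -0.66 to 1.55. In Hep_LPCs against NPC_LPCs, Cebpb ranged from -0.15 to 0.55 and Hhex from -0.24 to 0.36, and in Bec_LPCs against Hep_LPCs Prox1 ranged from -0.0022 to 1.59. Of 151, 160 and 161 recomputed member values, 133, 141 and 133 kept their direction and their side of the threshold. The causes of these changes were not tested. Foxa3 could not be tested with a filter of 10 CPM in 2 libraries, nor in the fit of 4 libraries for Bec_LPCs against NPC_LPCs, nor Prox1 on FPKM. The limits are the 2 libraries per group and the few reads of Foxa3, Cebpa and Tbx3 in NPC_LPCs.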
